A study of Mus musculus with 9 samples.

Results

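The proteasome genes described here are 46 genes of a deposited table of 21989 gene symbols, measured by RNA sequencing in the hearts of 9 mice. They were chosen by name: symbols that begin with Psma, Psmb, Psmc, Psmd, Psme, Psmf or Psmg followed by a digit, with an FPKM above 0 in at least 3 of the 9 libraries. FPKM is a level of sequenced fragments adjusted for the length of the gene and the size of the library. Of 50 symbols that matched, the 3 interferon-induced genes Psmb8, Psmb9 and Psmb10 were left out, and Psmb11, the beta subunit of the thymus, was listed at 0 in every library. The members are core, regulatory particle, assembly and activator genes, except for Psmc3ip, which matched by its symbol only and encodes a cofactor of meiotic recombination. Psma8, the alpha subunit of the testis, did not reach an FPKM of 1 in 3 libraries, which left 45 members among the 11380 genes tested. Psma8 had 16, 15 and 0 fragments in sham, 0, 6 and 30 in TAC and 6, 15 and 1 in LD, where 0 fragments still allows up to 3.

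All mice were C57BL/6J males of 18 to 20 weeks, and poly-A RNA came from heart tissue, with 3 mice in each of 3 groups. The sham group had a sham operation and distilled water. The TAC group had the operation that the labels call TAC, usually read as transverse aortic constriction, which loads the left ventricle with pressure, and distilled water. The LD group had TAC and Lingguizhugan decoction, a Chinese herbal preparation, so that the operation is shared by TAC and LD and the water by sham and TAC. No dose, operation day or treatment length was used here. In such bulk tissue, fewer cells of a type and less RNA per cell cannot be told apart.

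The proteasome is the barrel-shaped protease that degrades proteins tagged with ubiquitin. Its core particle is built of alpha rings, which gate the entrance, and beta rings, which hold the cutting sites. A regulatory particle binds either end: its base unfolds the substrate with a ring of ATPases, and its lid removes the ubiquitin. Because each subunit takes a fixed place in the complex, its genes are known for being expressed together, in part through the transcription factor NRF1 (Nfe2l1), which binds antioxidant response elements in their promoters. In the heart muscle the proteasome clears damaged and surplus contractile proteins, and muscle ubiquitin ligases such as Trim63 and Fbxo32 feed it.

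Library totals recovered from the FPKM values were 14.5 to 18.1 M fragments in sham, 8.40 to 14.9 M in TAC and 7.43 to 18.1 M in LD. The cardiomyocyte markers summed to more than those of any other cell type listed: all 8 were above 0 in every library, with summed FPKM of 45431 to 48064 in sham, 35015 to 46139 in TAC and 45708 to 73032 in LD. The lowest of these sums was in TAC replicate 3 and the highest in LD replicate 3. Fibroblast markers (7 of 7 above 0 throughout) summed to 320 to 448 in sham, 518 to 1108 in TAC and 389 to 493 in LD, without overlap between TAC and either other group. Erythroid markers (6) summed to 516 to 3343, 2238 to 11052 and 1205 to 2274. The ranges for endothelial (5) and macrophage (6) markers overlapped between the groups. Whether cell makeup had a part in the results below was not tested.

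The proteasome genes were well expressed. The median tested member had a mean FPKM of 57.0 over the 9 libraries, beside 7.48 for the median gene tested, and 42 members were at 1 or more in all 9. The highest was Psmb4, a beta subunit without a cutting site, with a mean of 281, followed by Psmb5 and Psmd4, both at 214. Below 6 FPKM stood Psmb6, Psmf1, Psmd5, Psmg1 and Psmc3ip. Levels here are the authors' FPKM, per length of the gene model behind them. The plot of levels by library shows both the range over members and the spread within a member.

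**Figure D1:**
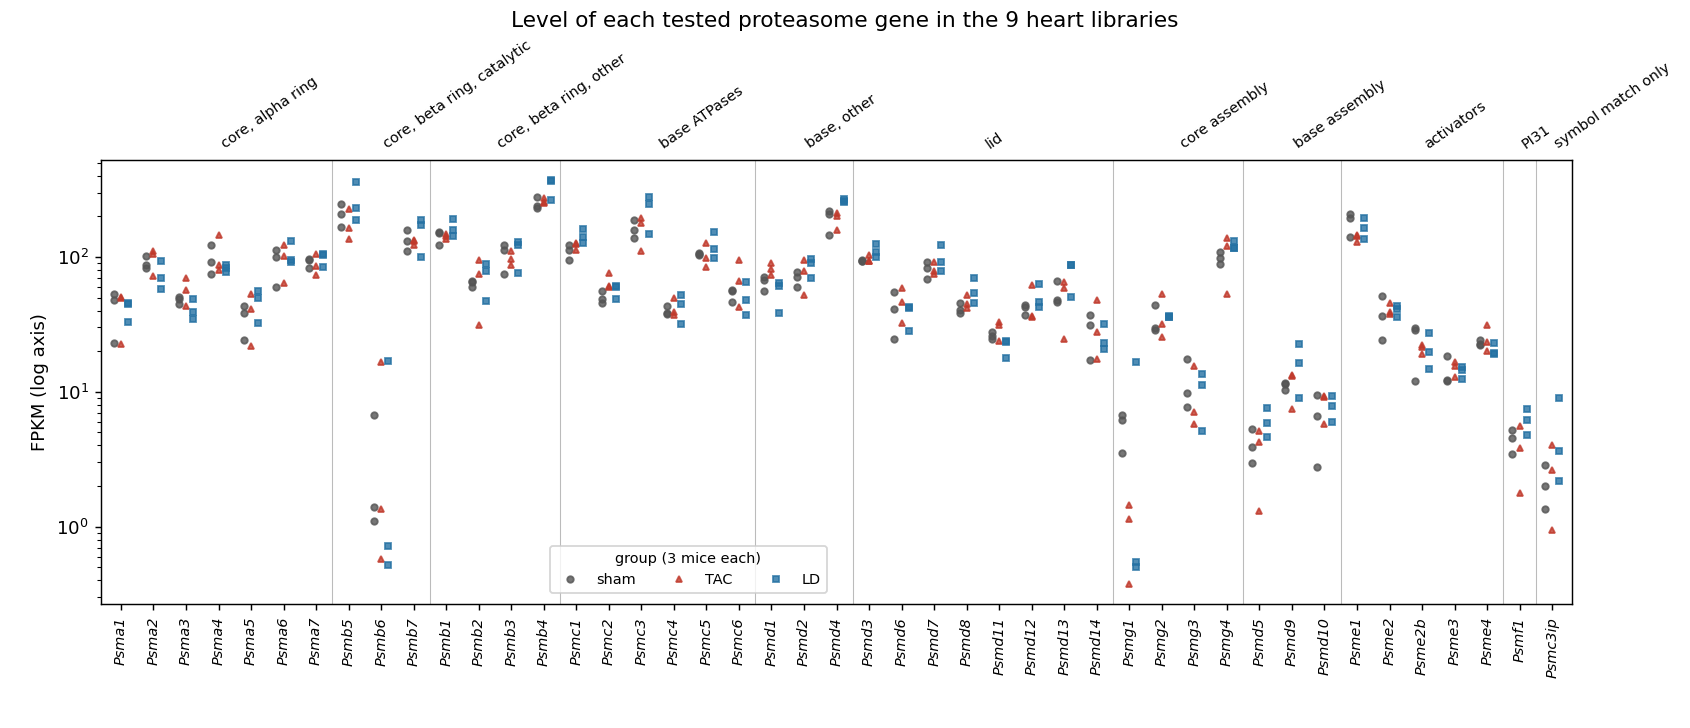
FPKM (log axis) of the 45 tested members in the 9 libraries, ordered by role; each point is 1 library, coloured and shaped by group (sham, TAC and LD, 3 mice each). Most members keep their 9 points close together, while Psmb6 runs from 0.52 to 16.8 and Psmg1 from 0.375 to 16.7.

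In the alpha ring, the 7 subunits had mean levels between 40.0 FPKM (Psma5) and 97.5 (Psma6). Psma7, the member of this ring with the smallest spread, stood at 97.2, 94.5 and 83.0 in sham replicates 1, 2 and 3, at 73.8, 85.0 and 105 in TAC and at 83.5, 104 and 104 in LD. Its 3 groups overlapped, and its coefficient of variation over the 9 libraries was 12.2%, beside 22.7% for the median member and 30.9% for the median gene tested.

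The 3 cutting sites of the core sit on Psmb5 (cutting after hydrophobic residues), Psmb6 (after acidic residues) and Psmb7 (after basic residues). Psmb5 stood at 207, 245 and 165 FPKM in sham, 137, 163 and 227 in TAC and 187, 232 and 362 in LD. Psmb7 stood at 132, 158 and 111 in sham, 123, 132 and 133 in TAC and 99.6, 173 and 189 in LD. For both genes LD replicate 3 was the highest of the 9 libraries and the groups overlapped. Psmb6, although its product sits in the same ring, was listed far lower, at 1.09, 6.78 and 1.39 in sham, 0.574, 16.5 and 1.35 in TAC and 0.52, 0.721 and 16.8 in LD. Each group thus held 1 library well above its other 2 (sham replicate 2, TAC replicate 2 and LD replicate 3). The fragments behind these levels numbered 41, 204 and 43, 10, 510 and 25 and 8, 27 and 559 in the same order of libraries. The gene length recovered from the FPKM of Psmb6 (chromosome 11, 70525367 to 70527858 on GRCm38) was at least 2072 bases, longer than its 1872 annotated exon bases in GENCODE M21, and what else its gene model holds was not tested, so its listed level may not be that of Psmb6 alone.

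The other 4 beta subunits ranged from 67.6 (Psmb2) to 281 (Psmb4) in mean FPKM. Psmb4 (chromosome 3, 94884093 to 94886961) stood at 229, 276 and 239 in sham, 251, 272 and 256 in TAC and 264, 369 and 369.8 in LD. The TAC values lay inside the sham range, and LD replicates 2 and 3 lay above all 7 other libraries.

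Among the 6 ATPases of the base, mean levels ran from 41.5 (Psmc4) to 183 (Psmc3). Psmc4 stood at 38.6, 43.0 and 37.5 in sham, 37.0, 49.3 and 39.2 in TAC and 32.1, 44.5 and 52.5 in LD, with overlap between all groups. Psmc2 stood at 48.4, 55.9 and 45.3 in sham, 61.4, 76.3 and 59.7 in TAC and 48.7, 60.6 and 60.01 in LD. All TAC values of Psmc2 lay above all sham values, with LD between and overlapping both.

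The base also holds Psmd1 and Psmd2, scaffolds on which ubiquitin receptors dock, and Psmd4, itself a ubiquitin receptor. Psmd1 (chromosome 1, 86064387 to 86139151) stood at 56.0, 70.8 and 67.6 FPKM in sham, 72.9, 81.0 and 90.2 in TAC and 63.7, 61.4 and 38.4 in LD. Every TAC library was above every sham and every LD library, and LD replicate 3 was the lowest of all. Psmd4 (chromosome 3, 95032694 to 95042614) stood at 146, 219 and 208 in sham, 213, 201 and 158 in TAC and 258, 267 and 254 in LD. Here every LD library was above every sham and every TAC library, while sham and TAC overlapped.

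The 8 lid genes ranged from 25.7 (Psmd11) to 100.4 (Psmd3) in mean FPKM. Psmd14, the enzyme that cuts ubiquitin chains off the substrate, stood at 36.8, 31.3 and 17.3 in sham, 17.5, 27.8 and 48.1 in TAC and 31.8, 22.9 and 20.8 in LD, and its groups overlapped. Psmd11, which ties the lid to the core, stood at 27.7, 25.96 and 24.6 in sham, 24.0, 32.8 and 31.2 in TAC and 23.8, 23.3 and 17.8 in LD. All LD values of Psmd11 lay below all sham and all TAC values, by a narrow margin except in LD replicate 3. Psmd8, a structural lid subunit, stood at 40.4, 38.1 and 45.4 in sham, 44.8, 52.6 and 41.6 in TAC and 45.4, 54.2 and 70.1 in LD, the highest again in LD replicate 3.

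Among roles with more than 1 gene, the chaperones of the base had the lowest median level. These 3 had mean levels of 4.52 (Psmd5) to 12.8 FPKM (Psmd9), and the 4 chaperones of the alpha ring of 4.14 (Psmg1) to 108 (Psmg4). Psmd5 stood at 2.97, 3.87 and 5.26 in sham, 4.25, 5.10 and 1.31 in TAC and 4.61, 7.52 and 5.82 in LD, with TAC replicate 3 the lowest. Psmg1 (chromosome 16, 95979933 to 95990960), whose product pairs with that of Psmg2 to start the alpha ring, stood at 6.22, 6.78 and 3.55 in sham, 1.45, 0.375 and 1.13 in TAC and 0.547, 0.506 and 16.7 in LD. All 3 TAC libraries and LD replicates 1 and 2 were below all sham libraries, and LD replicate 3 was above all other libraries. Its fragments numbered 222, 194 and 104 in sham, 24, 11 and 20 in TAC and 8, 18 and 527 in LD. Its partner Psmg2 ranged only from 25.3 to 53.5 FPKM. As for Psmb6, the recovered length of Psmg1 (at least 1970 bases) exceeded its annotated exon bases (1344).

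Activators replace the regulatory particle at the end of the core and open its gate without ATP. Psme1 and Psme2 form the interferon-induced activator ring, Psme3 its nuclear relative, and Psme4 a large nuclear activator. Psme1 (chromosome 14, 55578123 to 55581529) stood at 208, 195 and 141 FPKM in sham, 129.6, 144 and 143 in TAC and 135, 163 and 194 in LD. TAC replicates 2 and 3 lay just above sham replicate 3, and all TAC libraries below the other sham libraries. Psme2 stood at 51.5, 36.3 and 24.1 in sham, 45.8, 39.3 and 37.8 in TAC and 35.9, 41.0 and 43.5 in LD. Of the windows of 100 bases in the longest coding transcript of Psme2, 44.5% were also found in other genes, most often in the retrocopy Psme2b. For Psme2b this share was 52.0%, most often in Psme2, so the split of reads between them is uncertain. Psme4 stood at 22.6, 22.3 and 24.3 in sham, 23.6, 20.1 and 31.1 in TAC and 22.9, 19.2 and 19.0 in LD, and its groups overlapped. Psmf1, the regulator PI31, which binds the core and takes part in its transport, stood at 4.57, 5.17 and 3.44 in sham, 5.62, 3.84 and 1.79 in TAC and 6.15, 7.40 and 4.79 in LD, lowest in TAC replicate 3.

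Reads of other members may be shared too. The share of windows also found in any other gene was 27.5% for Psma5, 24.9% for Psmb5, 20.6% for Psma3 and 20.0% for Psmb7. The genes that shared the most windows with them were Gm8394, Gm3375, Gm13835 and Nek6, in that order. The labels name no step that marks the strand, so reads of overlapping genes cannot be told apart by it. Overlaps touched 25.5% of the exon bases of Psmd9 (Gm26745) and 21.2% of those of Psmc3ip (Mlx).

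The first question is how far these genes differ after the operation. Between TAC and sham no proteasome gene passed the test, and the members as a list stayed near their sham level, with a median log2 difference of 0.06 (28 above 0 and 17 below) beside 0.00 for all genes tested (5690 above and 5690 below). With sham replicate 3 left out this median was -0.01, and likewise with TAC replicate 2 left out. The median of the list was 0.08 in the alpha ring, 0.11 in the ATPases, 0.07 in the lid and -0.17 in the alpha ring chaperones. In limma on log2(FPKM + 1), 0 of 45 members and 0 of 11380 genes (0.0%) had an adjusted p under 0.05. At an unadjusted p under 0.05 there was 1 member (Psmg1), beside 618 genes (5.43%), and limma's voom on the recovered fragments called 0 members and 4 genes.

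Psmg1 had the largest difference of the members between TAC and sham, 0.986 ± 0.552 against 5.52 ± 1.73 FPKM (SD, n = 3). On the log2 scale this was -1.72 ± 0.71 (SE), with a limma p of 0.0298 that did not pass adjustment (adjusted p = 0.886). By voom the difference was -2.81. The next members by p were the ATPase Psmc2 at 0.39 ± 0.22 (65.8 ± 9.18 against 49.9 ± 5.48 FPKM) and the activator Psme1 at -0.36 ± 0.23 (139 ± 8.24 against 181 ± 35.6), neither of which passed (adjusted p = 0.968 and 0.976 by limma). The groups did not overlap for Psmc2 and Psmd1, higher in TAC (2 of 45 members, 4.44%, beside 5.22% of all genes), and for Psmg1, lower (1, or 2.22%, beside 4.62%). These shares are close to or below those of all genes. Of the 45 members, 44 had a difference within 0.5 either way. The 95% interval of the median member, without adjustment for the number of genes, reached 0.57 to either side. Smaller shifts of a single gene could not be detected. Larger ones could be missed too, since Psmg1 at -1.72 did not pass adjustment.

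The next question is how operated mice with and without the decoction differ. Between LD and TAC the members' median log2 difference was 0.18 (30 above 0 and 15 below), while that of all genes was -0.10 (4505 above and 6875 below). All 4 beta subunits without a cutting site and all 4 alpha ring chaperones were above 0, with medians of 0.19 and 0.21, while 4 of 5 activators were below (median -0.06). In these roles LD and TAC overlapped for every gene. The difference of Psmg1 rested on LD replicate 3, at 16.7 FPKM beside 0.547 and 0.506 in the other LD libraries. Its TAC values were 1.45, 0.375 and 1.13. Psmb3 and Psmg3 also had their highest LD value in LD replicate 3. The alpha ring was split, with 4 above and 3 below (Psma2, Psma3 and Psma4). By limma 0 members and 0 genes (0.0%) passed an adjusted p under 0.05. The unadjusted p was under 0.05 for 1 member (Psmd1) and for 1004 genes (8.82%), and voom called 0 members and 0 genes.

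The scaffold gene Psmd1 had the smallest p of the members, at 54.5 ± 14.0 FPKM in LD and 81.4 ± 8.63 in TAC, a log2 difference of -0.60 ± 0.24 (adjusted p = 0.537 by limma). Without LD replicate 3 the difference was -0.37, and -0.29 without TAC replicate 3 as well. The ubiquitin receptor gene Psmd4, at 260 ± 6.84 against 191 ± 28.9, differed in the other direction (0.46 ± 0.22, adjusted p = 0.571 by limma). Psmf1 differed by 0.65 ± 0.33 (6.11 ± 1.31 against 3.75 ± 1.92; adjusted p = 0.579 by limma), and by 0.31 without TAC replicate 3. The groups did not overlap for Psmc1 and Psmd4, higher in LD (2 members, 4.44%, beside 3.73% of genes), and for Psmd1 and Psmd11, lower (2, or 4.44%, beside 8.14%). The members' excess over the median gene, 0.285, was 0.0828 without LD replicate 3 and 0.00269 without both that library and TAC replicate 3.

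LD against sham shares its LD libraries with the last comparison and its sham libraries with the first. The median member stood at 0.16 (32 above 0 and 13 below) beside -0.11 for the median gene. Without LD replicate 3 the members' median was 0.0741, and their excess over the median gene was 0.108 in place of 0.271. By role the medians were 0.40 for the 3 base chaperones, 0.30 for the other base genes, 0.24 for the lid and -0.13 for the activators. Psmd4 differed by 0.46 ± 0.22 (260 ± 6.84 against 191 ± 39.3 FPKM), Psmb4 by 0.42 ± 0.21 (334 ± 60.7 against 248 ± 24.8) and Psmd8 by 0.43 ± 0.23 (56.6 ± 12.5 against 41.3 ± 3.73). The adjusted p by limma was 0.875 for each. Psmd4 differed by 0.28 without sham replicate 1 and Psmd8 by 0.26 without LD replicate 3.

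In LD against sham, 0 members and 0 genes (0.0%) passed limma's adjusted threshold, 0 members and 581 genes (5.11%) had an unadjusted p under 0.05, and voom called 0 members and 3 genes. Psmc1, Psmd3, Psmd4 and Psmg4 were higher in LD without overlap (4 of 45, or 8.89%, beside 4.47% of genes), and Psmd11 was lower (1, or 2.22%, beside 8.76%). The F test for any difference among the 3 groups called 0 members and 0 genes (0.0%) in limma. At an unadjusted p under 0.05 it had 0 members and 769 genes (6.76%), and voom called 0 members and 3 genes. The plot of group differences sets the 3 comparisons side by side.

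**Figure D2:**
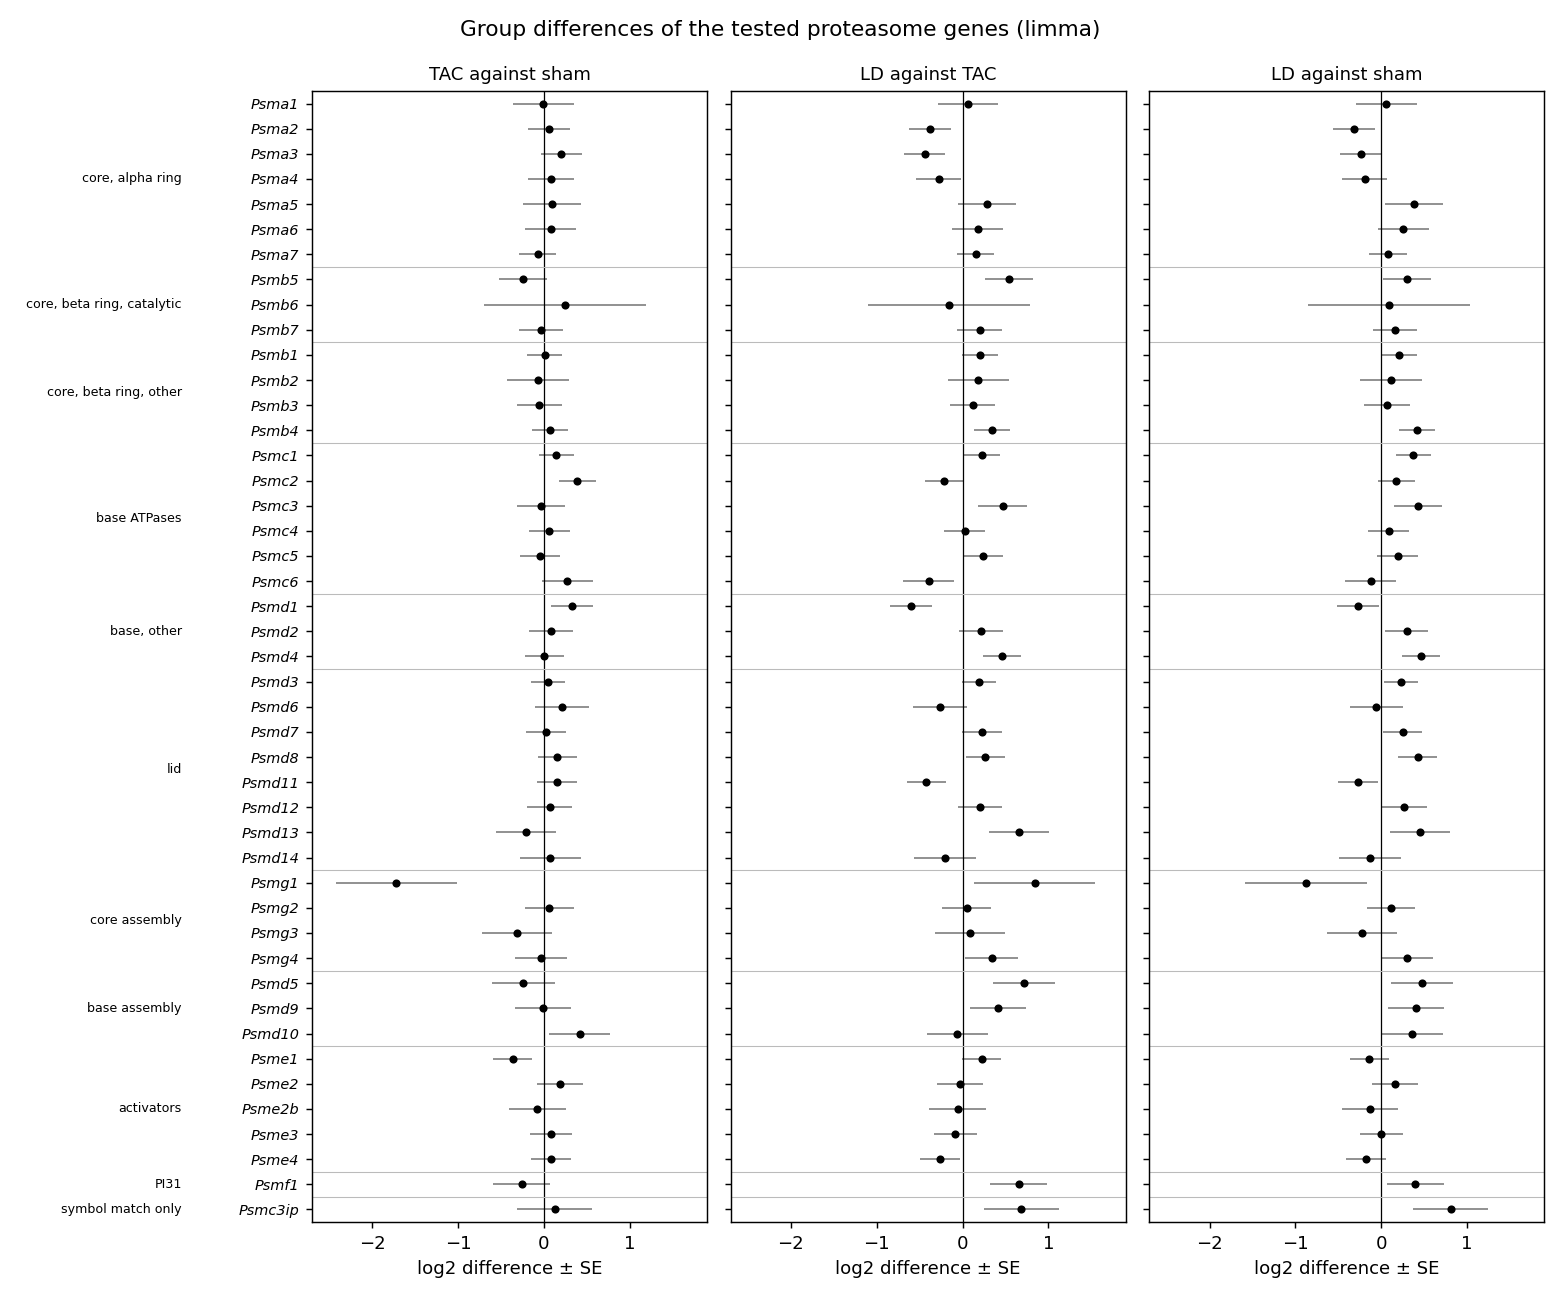
Log2 difference of log2(FPKM + 1) with limma's standard error (bars) for the 45 tested members in TAC against sham, LD against TAC and LD against sham, 3 mice per group, ordered by role. Most points lie within 0.5 of 0 (44, 38 and 43 of 45), and Psmg1 and Psmb6 have the longest bars.

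Single libraries departed from the others over many members. Measured from each gene's sham mean, the median member stood at 0.01, 0.18 and 0.04 in TAC replicates 1, 2 and 3 and at -0.02, 0.16 and 0.30 in LD replicates 1, 2 and 3, where the median gene stood between -0.05 and 0.08 except in LD replicate 3 (-0.24). In LD replicate 3, 16 of 45 members (35.6%) were at least 0.5 above their sham mean and 4 (8.89%) at least 0.5 below it, beside 11.02% and 34.0% of all genes. That library held the highest value of 19 of the 45 members, beside 10.2% of all genes, among them Psmb4, Psmb5, Psmb7, Psmc3 and Psmd13. It held the lowest value of 6 members, beside 31.1% of all genes. TAC replicate 3 held the highest value of 9 members, beside 27.3% of all genes, and the lowest of 11, beside 16.4%. In TAC replicate 3, 8 members (17.8%) were at least 0.5 above the sham mean and 11 (24.4%) at least 0.5 below, beside 23.0% and 17.9% of all genes. LD replicate 2 had 8 members (17.8%) at least 0.5 above, beside 8.41% of all genes, and sham replicate 3 had 8 (17.8%) at least 0.5 below, beside 5.25%.

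**Figure D3:**
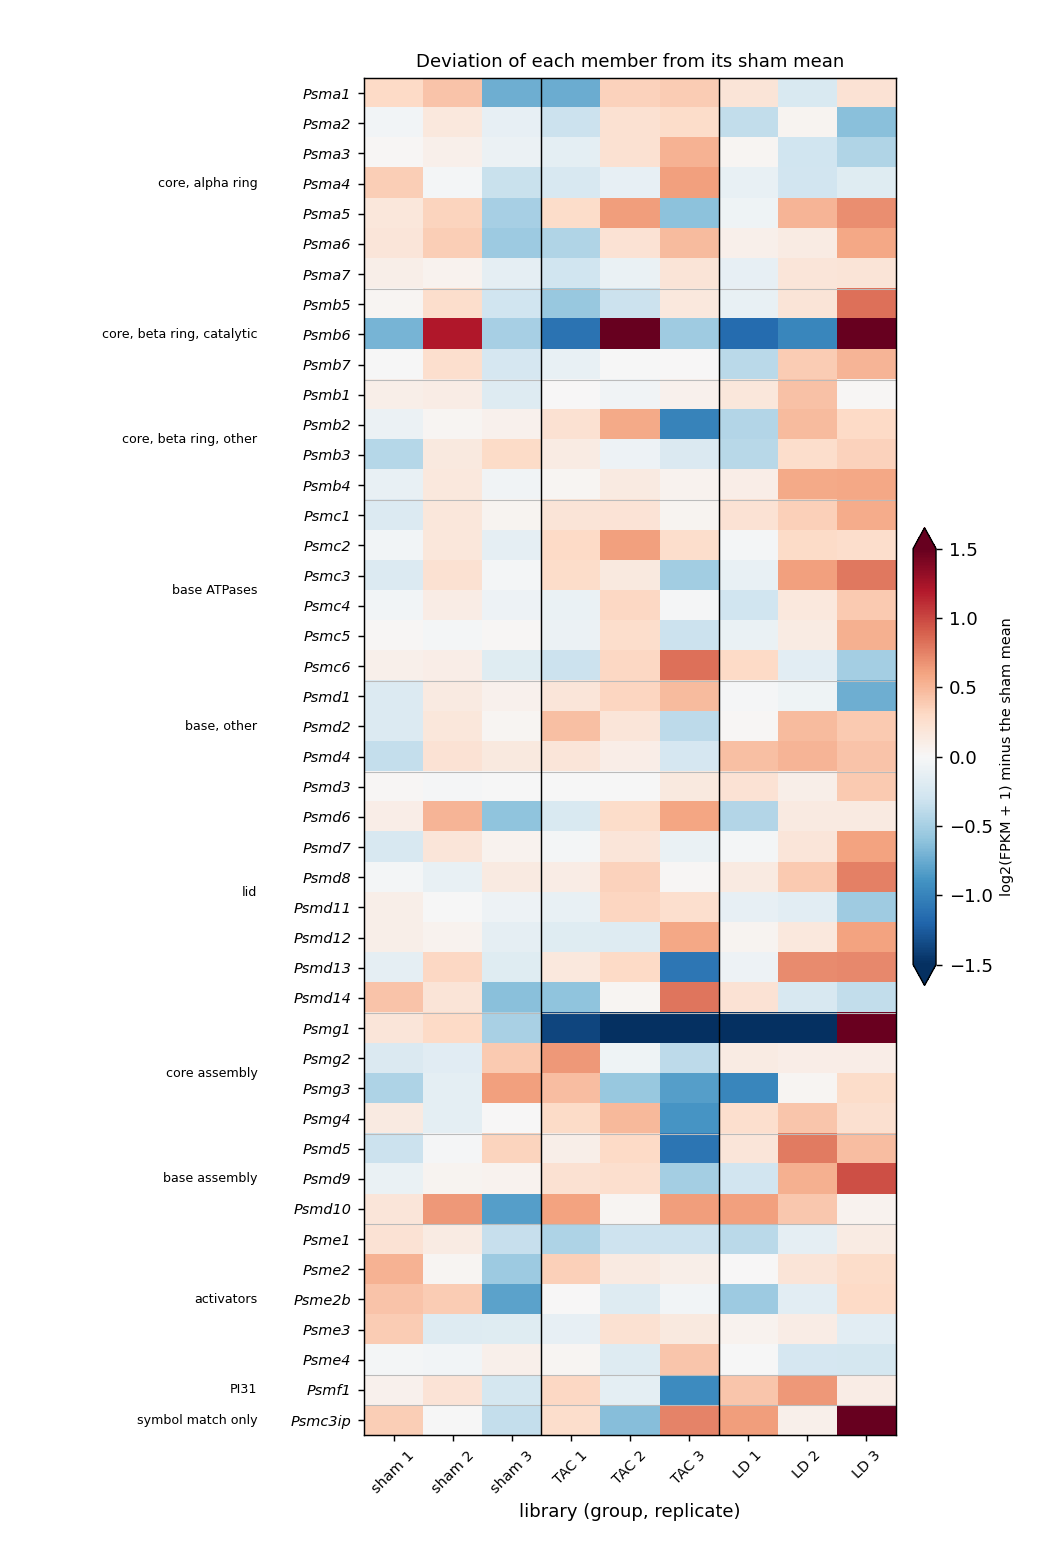
Deviation of log2(FPKM + 1) from the gene's sham mean (colour; red above, blue below, with values past the ends of the scale drawn in the end colours) for the 45 tested members (down, by role) in the 9 libraries (across). LD replicate 3 is red for most members and blue for Psma2, Psma3, Psmc6, Psmd1 and Psmd11, which are red in TAC replicate 3.

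The members that were high in TAC replicate 3 and those high in LD replicate 3 were in part different genes. Of the 45, 20 were below their sham mean in TAC replicate 3 and above it in LD replicate 3, 9 were above in the former and below in the latter (Psma2, Psma3, Psma4, Psmc6, Psmd1, Psmd11, Psmd14, Psme3 and Psme4), 16 were above in both and 0 below in both. Psmc6, an ATPase of the base, stood at 94.5 FPKM in TAC replicate 3 and at 37.0 in LD replicate 3, its highest and lowest values. Psmd13, a lid gene, stood at 24.5 and 87.7, its lowest and highest.

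This split ran along the GC content of the transcripts. Over the 45 members the deviation correlated with GC content (of the longest annotated transcript) at r = -0.47 in TAC replicate 3 and 0.50 in LD replicate 3, beside -0.33 and 0.14 over 11029 genes. These are correlations across genes of 1 library each, which share that library and its depth. Of the 15 members of lowest GC (37.0% to 47.1%), 14 were above the sham mean in TAC replicate 3 (median 0.47), and 7 were above and 8 below it in LD replicate 3 (median -0.18). Of the 15 of highest GC (51.5% to 57.4%), 6 were above and 9 below in TAC replicate 3 (median -0.25), and 15 were above in LD replicate 3 (median 0.54). These 2 libraries were also those with the lowest and the highest summed cardiomyocyte markers, and the part of GC content or cell makeup in the group differences was not tested.

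**Figure D4:**
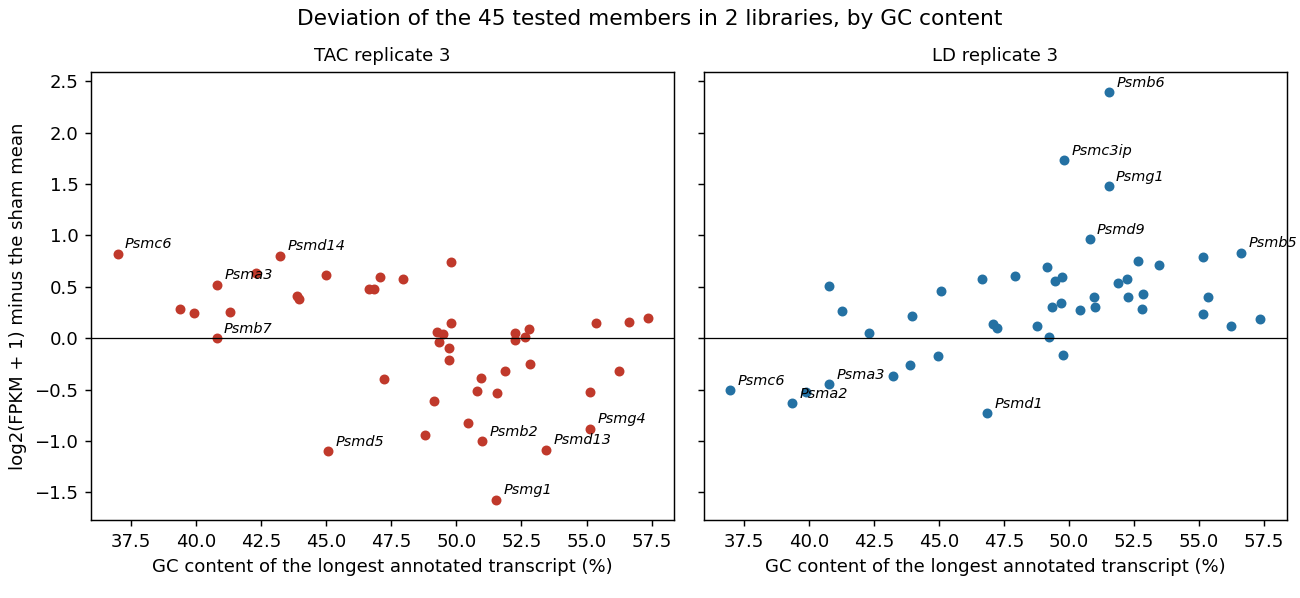
Deviation of log2(FPKM + 1) from the sham mean against the GC content of the longest annotated transcript, for the 45 tested members in TAC replicate 3 (left) and LD replicate 3 (right); each point is 1 gene and some are named. The points fall with GC content on the left (r = -0.47) and climb with it on the right (r = 0.50).

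Likeness among members was measured as the correlation of each gene's log2(FPKM + 1) with the mean of the other members over the 9 libraries. It was at least 0.5 for 17 of 45 members and below 0 for 10, with a median of 0.42. Likeness was not measured in other sets of genes, so whether these counts are high or low for a gene list is not known. The members most like the rest were the cutting subunit Psmb7 (r = 0.89), the ATPase Psmc4 (0.86) and the lid gene Psmd7 (0.80). The least like were Psme4 (-0.70), Psmd1 (-0.63), Psma3 (-0.50), Psmd11 (-0.47) and Psmc6 (-0.45). After median-of-ratios scaling, which sets the median gene equal between libraries, 30 members reached 0.5 and 8 were below 0. With the group means taken out, 19 reached 0.5. The points share libraries, and without LD replicate 3 the r of Psmd1 was -0.08 and 12 members reached 0.5.

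The promoters of 38 members were found in RefSeq's table for GRCm38.p6 (250 bases before the start searched, both strands). The core of the antioxidant response element, TGACNNNGC, which NRF1 binds, was present in those of 5 members (13.2%), beside 10.2% of 32851 promoters of the same length. The CCAAT box, CCAAT, was in 13 (34.2%) beside 33.8%. Members were counted by gene, with a match in any promoter of the gene, while the background was counted by promoter. Psma6, Psmc2 and Psme2 had more than 1 promoter, so the shares of members and background are not strictly comparable. The 5 windows of 60 bases that hold the element are shown, since 2 belong to cutting subunits (Psmb5 and Psmb6) and 1 to Psmc6. The listed level of Psmb6 may not be that of Psmb6 alone, and the likeness of Psmc6 to the other members was below 0. Capitals mark the element, which in Psmd12 and Psmc6 lies on the opposite strand and so appears as its reverse complement. The windows are Psmb5 at chr14:54618009-54618068 (minus strand), Psmb6 at chr11:70525297-70525356, Psmc6 at chr14:45329574-45329633, Psmd9 at chr5:123228130-123228189 and Psmd12 at chr11:107479278-107479337 (the last 4 on the plus strand).
Psmb5: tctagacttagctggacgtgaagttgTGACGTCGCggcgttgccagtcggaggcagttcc
Psmb6: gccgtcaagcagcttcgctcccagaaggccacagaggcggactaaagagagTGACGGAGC
Psmc6: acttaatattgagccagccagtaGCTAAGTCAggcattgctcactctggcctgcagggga
Psmd9: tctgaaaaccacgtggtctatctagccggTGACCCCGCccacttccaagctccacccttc
Psmd12: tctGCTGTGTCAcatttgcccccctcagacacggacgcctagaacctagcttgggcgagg

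The element starts 47 bases before the annotated start in Psmb5, 31 in Psmd9 and 9 in Psmb6, and farther away in Psmc6 (227) and Psmd12 (247). A match of these letters is a description of the sequence, not a measured binding site. In LD replicate 3, Psmb5, Psmb6, Psmd9 and Psmd12 were above their sham means and Psmc6 below. Most tested members were likewise above in that library: 20 there but not in TAC replicate 3 and 16 in both, with 9 below. Whether genes with the element share a course was not tested.

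Genes that work with the proteasome were taken from a fixed list of 61, of which 55 were tested. By limma 0 passed an adjusted p under 0.05 in any comparison, and voom called 0 as well. At an unadjusted p under 0.05 there were 3 higher and 1 lower in TAC against sham, 2 higher and 3 lower in LD against TAC, and 1 higher and 2 lower in LD against sham. Set against 5.43%, 8.82% and 5.11% of all genes in the same comparisons, these counts of the 55 are near the background. Nfe2l1, the NRF1 gene, stood at 131, 121 and 105 FPKM in sham, 90.6, 117 and 127 in TAC and 109.5, 99.8 and 99.5 in LD, and its relative Nfe2l2 at 14.2, 16.6 and 16.2, at 13.1, 12.3 and 21.4 and at 10.9, 11.1 and 7.50. All LD values of Nfe2l2 were below all sham and all TAC values (LD against sham, -0.63 ± 0.27, limma adjusted p = 0.875).

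Adrm1, a ubiquitin receptor of the base outside the Psm names, ranged from 70.9 to 85.7 FPKM over the 9 libraries. Pomp, which matures the beta ring, ranged from 147 to 226, with overlap between the groups. Of the interferon-induced cutting subunits, Psmb10 stood at 87.8, 79.1 and 68.2 in sham, 64.8, 57.8 and 79.1 in TAC and 88.4, 94.0 and 129.9 in LD. Its LD values were all above its TAC values (0.61 ± 0.23, adjusted p = 0.537 by limma). Psmb8 had 2 to 18 fragments in 8 libraries and 185 in LD replicate 3, and Psmb9 had 0 to 148, the most in TAC replicate 2. Psmb8 thus shared its highest library with Psmb6 and Psmg1, and its recovered length (at least 4892 bases against 3381 annotated) was also longer than its exons, a likeness noticed after the values were seen. The recovered length was longer in other genes too, such as Psme2b (at least 1066 against 837), whose highest library was sham replicate 1. Whether length and highest library are linked was not tested.

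Among ubiquitin ligases of muscle, Trim63 stood at 91.5, 117 and 104 FPKM in sham, 139.5, 169 and 174 in TAC and 119, 108 and 112 in LD. Every TAC library was above every sham and every LD library, with differences of 0.62 ± 0.21 for TAC against sham (adjusted p = 0.772 by limma) and -0.50 ± 0.21 for LD against TAC (adjusted p = 0.54 by limma). Ubqln2, a shuttle that carries tagged proteins to the proteasome, also stood highest in TAC, at 12.6, 10.1 and 6.03, at 14.2, 15.0 and 26.2 and at 10.8, 9.50 and 8.23. Its differences were 0.88 ± 0.31 and -0.84 ± 0.31, and -0.49 for LD against TAC without TAC replicate 3 and LD replicate 3. These 2 comparisons share the TAC libraries. Fbxo32, the other well-known atrophy ligase, stood at 16.9, 27.4 and 22.8 in sham, 17.8, 25.5 and 29.9 in TAC and 22.3, 16.4 and 15.2 in LD, with overlapping groups.

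Among the other pathway genes of small p, Trim55, a muscle ligase, differed by -0.68 ± 0.30 in TAC against sham. Cops7b, a subunit of the signalosome that regulates cullin ligases, differed by 0.83 ± 0.32 in LD against TAC and 0.75 ± 0.32 in LD against sham. Mdm2, the ligase of p53, differed by -0.83 ± 0.29 and Trim32 by -0.69 ± 0.34 in LD against sham. None of these passed limma's adjusted threshold.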

How the data were processed

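The deposited values are FPKM, made by the authors. The submitters' processing notes name Cufflinks 2.2.1, HTSeq 0.7.2, HISAT2 2.1.0, DESeq, fastp 0.20.0 and CASAVA 1.8, and the build GRCm38. What each tool did, and which annotation it used, is not given in the sources used here. Each of the 9 columns was matched to 1 sample by name.

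Library totals, gene lengths and whole fragments were recovered from the FPKM steps: all 16262 genes above 0 gave whole fragments within 0.001. The smallest length that fits was taken. Genes at 1 FPKM or more in at least 3 libraries (11380) were tested with limma 3.58.1 (R 4.3.3) on log2(FPKM + 1), which understates the change of low genes, with all 9 libraries in 1 fit, 6 residual degrees of freedom, a trend, two-sided moderated tests and Benjamini-Hochberg adjustment over all genes at 0.05. The fit was checked on simulated data with independent noise per gene, which lacked the departures of single libraries over many genes described above. Voom was run on the recovered fragments. Errors are SDs over 3 mice or limma's standard errors, and counting limits (3 fragments for 0) cover counting error only. The labels speak of biological repeats and name no batch.

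Coordinates, lengths, GC content and shared windows come from GENCODE M21 on GRCm38. Named genes are the 3 members of smallest p per comparison, a fixed set by role, and up to 4 pathway genes per comparison; Psmc6 and Psmd13 were added after their values were seen. Some genes of the lists are not reported here. Members, lists and rules were chosen with earlier results of these data known. Alternatives changed the pseudocount, filter, scaling, fit and libraries.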

Additional observations from a re-analysis of the deposited data

How the results depend on the processing

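No proteasome gene passed the adjusted threshold in any of the 20 other settings; the smallest adjusted p of a member was 0.123 (Psmg1, LD against sham, limma without TAC replicate 3 and LD replicate 3). Single-gene differences were recomputed for 21 results, the 3 members and 4 pathway genes of smallest p in each comparison. All 418 recomputed values kept their direction and stayed unpassed. These results were picked for small p in the same libraries, so they say little about the other genes named. Over all genes, where 0 passed, requiring 1 FPKM in all 9 libraries gave 2 in TAC against sham, 3 in LD against sham and 2 in the F test, voom gave 4, 3 and 3, and a fit of 2 groups gave 10 in LD against sham. Leaving out 1 library gave 0 to 13, 0 to 8 and 0 to 8, the most without TAC replicate 1, and 0 in LD against TAC.

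The members' median in LD against TAC was 0.321 after median-of-ratios scaling, 0.07 after rescaling to equal sums, -0.0064 without TAC replicate 3 and LD replicate 3, and 0.0508 to 0.317 with 1 library left out (lowest without LD replicate 3, highest without LD replicate 1). The median gene moved with the scaling too (0.01 and -0.19). The members' excess over it was 0.00269 without both libraries and 0.0828 to 0.465 with 1 left out. With 1 left out, the members' median ranged from -0.01 (without TAC replicate 2) to 0.10 (without sham replicate 2) in TAC against sham and from 0.07 (without LD replicate 3) to 0.28 (without LD replicate 1) in LD against sham. Median-of-ratios scaling raised the likeness count to 30. The cause was not tested.

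Whether replicate numbers pair the mice is not given in the labels. Libraries of the same number correlated at -0.24 to 0.15 across groups, which shows no pairing but cannot exclude it. Only sham replicate 2 correlated best with a library of its own number (TAC replicate 2, r = 0.15). With the replicate block 0 members and 0 genes passed limma's threshold in each comparison (unadjusted p under 0.05 in 544, 813 and 494 genes). Psmg1 and Trim32 gave no value with 1 FPKM required in all 9 libraries, and the F test none in the fit of 2 groups. At 7.43 to 18.1 M fragments, Psmb6, Psmg1, Psmc3ip and Psma8 rest on under 50 fragments in several libraries.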

Other observations

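Genes that bind or feed the proteasome are described here after their values were seen. TAC replicate 3 held the highest value in unequal shares of the lists. Of 10 tested proteasome-bound factors, 7 had their highest value in that library, beside 27.3% of all genes tested, among them the deubiquitinases Usp14 (14.5 FPKM, with 7.02 to 11.6 elsewhere) and Uchl5 (24.9, with 9.28 to 16.5 elsewhere). Of 14 muscle ligases 7 did so, as did 2 of 4 genes of the NRF1 axis. In the other lists it was 3 of 10 shuttle and p97 genes, 1 of 9 signalosome genes, 0 of 5 genes of ubiquitin and its activating enzymes, 0 of 2 other 26S subunits and 0 of 1 interferon-induced subunit. Ubb, a ubiquitin precursor gene, was lowest there, at 205 FPKM in TAC replicate 3 and between 270.5 and 477 in the other libraries. Rps27a, another gene that encodes ubiquitin, stood at 277 in TAC replicate 3, inside its range of 174 to 340.2.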
